A study of Mus musculus with 2 samples.

Results

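The keratins of simple epithelia, a small group of other epithelial genes and vimentin were followed in cultured primary mouse brain pericytes (PCs). The 8 genes, of 31053 listed for each cell, were *Krt18*, *Krt8*, *Krt19*, *Krt7*, *Wfdc2*, *Cdh1*, *Epcam* and *Vim*. They were taken by symbol, each symbol matched 1 gene, and all 8 had a position in GENCODE M21 on GRCm38. They were chosen by earlier results of these data, above all by the CPM of *Krt18* and *Wfdc2* in the libraries of both passages. Every contrast between the passages given for them is therefore a description and supports nothing.

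PCs came from the brains of wild type C57BL/6N female mice of 6 to 8 weeks, with 6 mice pooled per isolation, and were sequenced in droplets after 5 passages in culture (PC5) or after 20 passages (PC20). Each passage was 1 library, so differences are without replication and were not tested. The study's methods name a separate isolation for each passage, while the deposited description speaks of 1 isolation. By the methods, passage and isolation cannot be told apart. Cells were kept if over 1000 genes were seen and mitochondrial UMIs stayed under 20%, by which PC5 held 9950 cells with a median of 21700 UMIs (unique molecular identifiers, each tagging 1 captured RNA molecule) and PC20 held 4749 cells with a median of 33424. The libraries shared 20 cell barcodes, all of them kept. Of 9 pericyte markers, 3 were seen in 10% or more of cells in PC5 or PC20, the platelet-derived growth factor receptor *Pdgfrb* with 44.6 CPM in PC5 and 5.43 CPM in PC20, the proteoglycan *Cspg4* with 5.55 and 0.0994 CPM, and the receptor *Notch3* with 11.1 and 1.60 CPM. *Rgs5*, *Kcnj8* and *Vtn*, which mark pericytes in the brain, numbered 405, 13 and 20 UMIs in PC5 and 0 in PC20. *Anpep*, another pericyte marker, had the higher level in PC20, 3.00 CPM against 1.93 CPM, with a UMI in 9.43% against 4.05% of cells. *Mcam* had 448 UMIs in PC5 and 83 in PC20, while *Abcc9* had 1 UMI in each library. *Cspg4* and *Notch3* reached 10% of cells only in PC5. The cells are called PCs here because the labels do so.

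Keratins are intermediate filament proteins that assemble only as pairs of a type I and a type II chain. In simple epithelia, which line organs and ducts, the usual pair is the type II chain *Krt8* with the type I chain *Krt18*, joined by the type II chain *Krt7* and the type I chain *Krt19*. Mesenchymal cells, pericytes among them, build their filaments mainly from vimentin, and the cadherin *Cdh1* and the adhesion molecule *Epcam* hold epithelial cells together. *Wfdc2* encodes a small secreted protein of epithelia with domains of the whey acidic protein family.

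*Krt8* and *Krt18* are neighbours. *Krt8* lies on chromosome 15 from 101996698 to 102004482 on the minus strand, and *Krt18* starts 23697 bases further on, from 102028180 to 102032027 on the plus strand. *Krt7* lies on the same chromosome from 101411043 to 101430313, 566384 bases from *Krt8*. *Krt19* is on chromosome 11 from 100140810 to 100148665, *Wfdc2* on chromosome 2 from 164562413 to 164568510, *Cdh1* on chromosome 8 from 106603351 to 106670246, *Epcam* on chromosome 17 from 87635979 to 87651129, and *Vim* on chromosome 2 from 13573927 to 13582826. An annotated pseudogene copy of *Krt8* on another chromosome was not used here, so how reads shared with it were assigned is uncertain.

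The 250 bases before the RefSeq start are shown for the 3 genes with the widest contrast between the passages and for *Vim*, the filament gene that was high in both. They are RefSeq sequences on GRCm38.p6, read 5′ to 3′ on the strand of the gene, at chr15:102027966-102028215 on the plus strand for *Krt18*, chr15:102004343-102004592 on the minus strand for *Krt8*, chr2:164562465-164562714 on the plus strand for *Wfdc2* and chr2:13574061-13574310 on the plus strand for *Vim*. The RefSeq starts used lie inside the GENCODE gene bounds given above, so all or some of each window falls within those bounds. Capitals mark matches to the motifs searched.
Krt18: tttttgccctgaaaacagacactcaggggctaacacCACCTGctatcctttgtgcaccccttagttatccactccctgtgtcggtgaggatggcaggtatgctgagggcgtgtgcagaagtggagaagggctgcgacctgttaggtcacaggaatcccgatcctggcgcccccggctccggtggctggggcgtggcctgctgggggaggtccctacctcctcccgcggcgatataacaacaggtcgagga
Krt8: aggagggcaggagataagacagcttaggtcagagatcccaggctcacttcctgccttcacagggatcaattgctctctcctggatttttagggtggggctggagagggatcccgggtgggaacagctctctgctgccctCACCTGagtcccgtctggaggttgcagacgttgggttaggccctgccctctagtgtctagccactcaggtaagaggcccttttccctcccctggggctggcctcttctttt
Wfdc2: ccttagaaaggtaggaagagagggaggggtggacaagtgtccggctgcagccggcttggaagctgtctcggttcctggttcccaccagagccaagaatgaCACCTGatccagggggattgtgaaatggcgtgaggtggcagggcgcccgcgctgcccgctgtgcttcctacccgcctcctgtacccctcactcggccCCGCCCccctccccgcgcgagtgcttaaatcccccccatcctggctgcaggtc
Vim: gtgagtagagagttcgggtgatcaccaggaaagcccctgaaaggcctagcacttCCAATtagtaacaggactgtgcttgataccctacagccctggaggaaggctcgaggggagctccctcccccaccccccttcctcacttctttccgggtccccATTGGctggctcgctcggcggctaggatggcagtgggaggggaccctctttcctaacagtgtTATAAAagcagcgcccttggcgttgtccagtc

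The motifs, searched on both strands of the 250 bases, were TATAAA (the core promoter box of that name), GGGCGG (bound by Sp1), CCAAT (bound by NF-Y), TGANTCA (bound by AP-1) and CACCTG, an E-box that Snail and Zeb repressors are known to bind in epithelial genes. Of the 8 genes 6 had an entry in the set of RefSeq promoter sequences used here. *Krt19* and *Cdh1* had none in that set and were not searched. CACCTG occurred in all 5 entries other than that of *Vim*, starting 214 bases before the start in *Krt18*, 111 in *Krt8*, 150 in *Wfdc2*, 44 in *Krt7*, and 187 and 19 in *Epcam*. It was found in 17.1% of the 27025 promoter windows of the same length. *Vim* held TATAAA 32 bases before its start, a motif found in 13.0% of windows, and CCAAT at 196 and 94, found in 34.5%. GGGCGG was found in *Krt7*, *Wfdc2* and *Epcam*, and in 32.9% of windows, while TGANTCA was in none of the 6 and in 6.87% of windows. The motifs do not overlap each other in these entries. A match is a run of letters and no evidence of binding.

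*Krt18*, the type I chain of the pair, was nearly absent from PC5 and among the most abundant RNAs of PC20. Levels are given as CPM, the UMIs of a gene divided by the UMIs of all kept cells of a library and multiplied by 1000000, with the 95% interval of counting error alone. PC5 held 30 *Krt18* UMIs, or 0.134 CPM (0.0907 to 0.192), and PC20 held 174466, or 913 CPM (909 to 917). The log2 ratio of PC5 over PC20 was -12.73 (-13.30 to -12.22), which is 6787-fold more in PC20. Ordered by CPM, *Krt18* was gene 14233 of PC5 and gene 146 of PC20.

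*Krt8*, the type II partner, showed the same contrast at a lower level. It had 6 UMIs in PC5, or 0.0269 CPM (0.00987 to 0.0585), and 18810 in PC20, or 98.4 CPM (97.0 to 99.8). Its log2 ratio was -11.84 (-13.28 to -10.71), 3659-fold more in PC20. *Wfdc2* had 33 UMIs in PC5, or 0.148 CPM (0.102 to 0.208), and 70625 in PC20, or 370 CPM (367 to 372), with a log2 ratio of -11.29 (-11.83 to -10.80). *Wfdc2* thus ranked gene 306 by level in PC20, against 14099 in PC5. These 3 genes were at the trace level in the earlier passage and in the body of the expressed genes in the later one.

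*Krt19*, the type I chain that is known for its unusually short tail, was present in both libraries. PC5 had 46.5 CPM (45.6 to 47.4) and PC20 120 CPM (119 to 122), and the log2 ratio was -1.37 (-1.40 to -1.34). *Krt7* ran the other way, with 887 UMIs or 3.98 CPM (3.72 to 4.25) for PC5, 377 UMIs or 1.97 CPM (1.78 to 2.18) for PC20, and a log2 ratio of 1.01 (0.84 to 1.19). *Krt7* was thus the only one of the 7 genes other than *Vim* that was lower in PC20, and it was a minor keratin in both.

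The epithelial adhesion genes stayed at trace counts in both libraries. *Cdh1*, the E-cadherin of epithelial junctions, had 4 UMIs in PC5 and 25 in PC20 (log2 ratio -2.87, from -4.85 to -1.33), and *Epcam* had 11 and 51 (-2.44, from -3.53 to -1.48). Neither passed 1 CPM. *Vim* was high in both, at 2575 CPM (2568 to 2582) for PC5 and 3909 CPM (3900.1 to 3918) for PC20, with its log2 ratio at -0.60 (-0.61 to -0.60). It ranked gene 78 in PC5 and gene 50 in PC20.

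**Figure D1:**
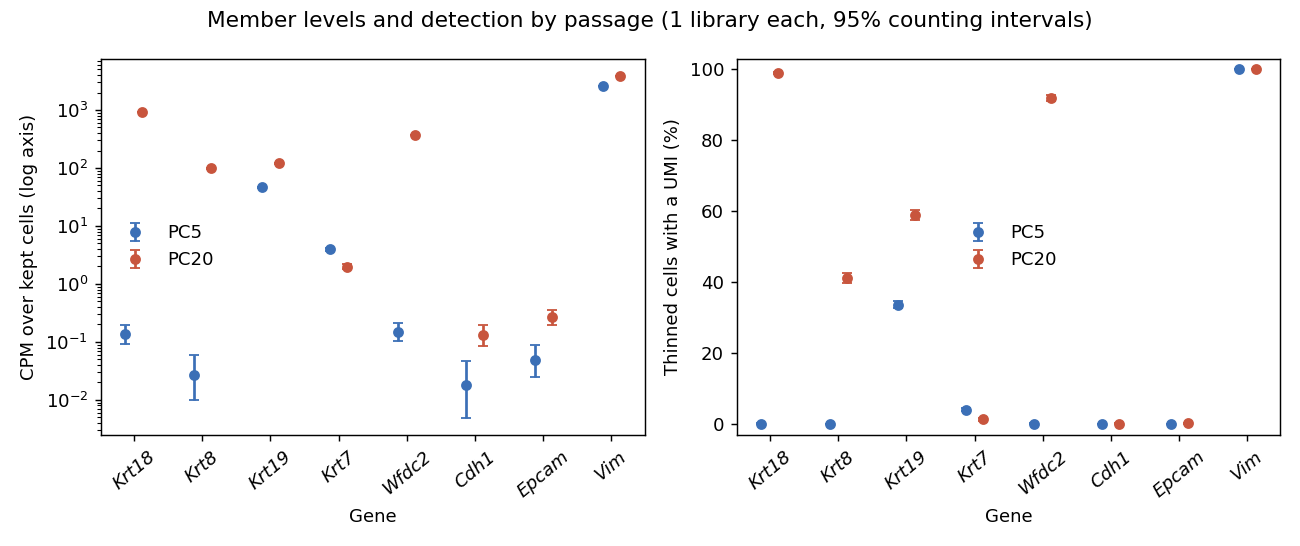
Levels of the 8 genes in PC5 and PC20 as CPM on a log axis (left) and the percent of cells with a UMI after each cell was thinned to 10500 UMIs (right), as points with 95% counting intervals and 1 library per passage. *Krt18*, *Krt8* and *Wfdc2* lie below 0.2 CPM in PC5 and between 98.4 and 913 CPM in PC20, while *Cdh1* and *Epcam* stay below 0.4 CPM in both.

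Expressed genes are here those seen in 10% or more of cells in PC5 or PC20, which 5 of the 8 were, while *Krt7*, *Cdh1* and *Epcam* did not. Of these 5, 4 were higher in PC20 by more than 2-fold and 0 were higher in PC5. Over all 10504 expressed genes 19.1% were higher in PC20 by more than 2-fold, 17.9% were higher in PC5, and 37% were past it in either direction, with a median log2 ratio of -0.03. Since the contrast led to the choice of the genes, nothing is read from their count.

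PC20 cells were deeper, and the contrast was also seen in cells brought to 1 depth. A *Krt18* UMI was found in 0.261% of PC5 cells (0.171 to 0.383) and 99.6% of PC20 cells (99.4 to 99.7). To compare cells of like depth, 10500 UMIs were drawn from each cell (thinning), which 8847 PC5 and 4474 PC20 cells allowed, and the shares were then 0.147% (0.0783 to 0.251) and 98.9% (98.6 to 99.2). For *Wfdc2* they were 0.322% and 97.3% before thinning and 0.181% and 91.9% after. A *Krt8* UMI was found in 0.0402% and 59.5% of cells, or 0.0113% and 41.2% after thinning.

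*Krt19* was found in 50.9% of PC5 and 79.4% of PC20 cells, or 33.7% (32.8 to 34.7) and 58.9% (57.4 to 60.3) after thinning. *Krt7* was found in 7.59% and 3.05%, or 4.09% and 1.39% after thinning. *Vim* was found in 99.9% and 100% of cells, and after thinning in every cell of both libraries. After thinning the keratin shares in PC20 thus ran from nearly all cells for *Krt18* to few for *Krt7*.

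As the cultures hold no cells that must lack these genes, 10 genes of other tissues, such as albumin and hemoglobin, stood for background. The highest thinned share among them was 0.0678% in PC5 and 0.156% in PC20, and the highest unthinned share 0.141% and 0.379%. In PC20 9 of the 10 genes had 0 UMIs, so both PC20 values are those of 1 gene. In PC5 3 of them had 0 UMIs. The thinned shares of *Cdh1*, 0.0339% in PC5 and 0.201% in PC20 (0.0920 to 0.382), and of *Epcam*, 0.0339% and 0.246% (0.123 to 0.439), had intervals that held the highest background share of their library. Without thinning the PC20 interval of *Cdh1* held 0.379%, at 0.526% (0.341 to 0.776), and that of *Epcam* lay above 0.379%, at 1.03% (0.764 to 1.36). The thinned shares of both are not read as expression. The PC5 shares of *Krt18* and *Wfdc2* were above that background but below 1%, and are not read as expression either.

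The few PC5 cells with these RNAs held almost no more than 1 molecule. *Krt18* UMIs lay in 26 PC5 cells, 23 of them with 1 UMI and 3 with more, and the largest number in a cell was 3. *Krt8* UMIs lay in 4 cells and *Wfdc2* UMIs in 32. Of the 9950 PC5 cells, 56 held UMIs of 1 of the 3 genes, 3 held UMIs of 2, and 0 held all 3, which allows a share of up to 0.0302% (3 cells of 9950) with UMIs of all 3, and is no limit on cells that express them. Barcodes found in both libraries held 2 of the 30 *Krt18* UMIs and 0 of the others. No group of PC5 cells with the PC20 combination of the 3 genes was seen.

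Among PC20 cells *Krt18* was spread over nearly the whole library. At 10500 UMIs per cell the median was 8 *Krt18* UMIs, the 5th and 95th percentiles were 2 and 22, and 1.10% of cells held none. The Fano factor, the variance over the mean, which is 1 for Poisson counts of equal cells, was 4.53. *Wfdc2* had a mean of 4.06 UMIs, a Fano factor of 2.69, and 8.14% of cells without a UMI, where Poisson counts of the same mean give 1.72%.

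*Krt8* was absent from more cells than a Poisson count gives. It had a mean of 1.05 UMIs and was at 0 in 58.8% of cells, against 35.1% for Poisson counts of that mean. The tenth of cells with the most *Krt8* held 53.5% of its UMIs, a share that grows as the mean falls, and its Fano factor was 3.55. *Krt19* had a mean of 1.36 and a Fano factor of 2.06 in PC20, and a mean of 0.468 and a Fano factor of 1.32 in PC5, close to counting noise. *Vim*, with means of 26.6 in PC5 and 40.1 in PC20, had Fano factors of 4.78 and 5.91. A Fano factor grows with the level where cells differ by the same proportion, so these values compare genes of unlike level only loosely.

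**Figure D2:**
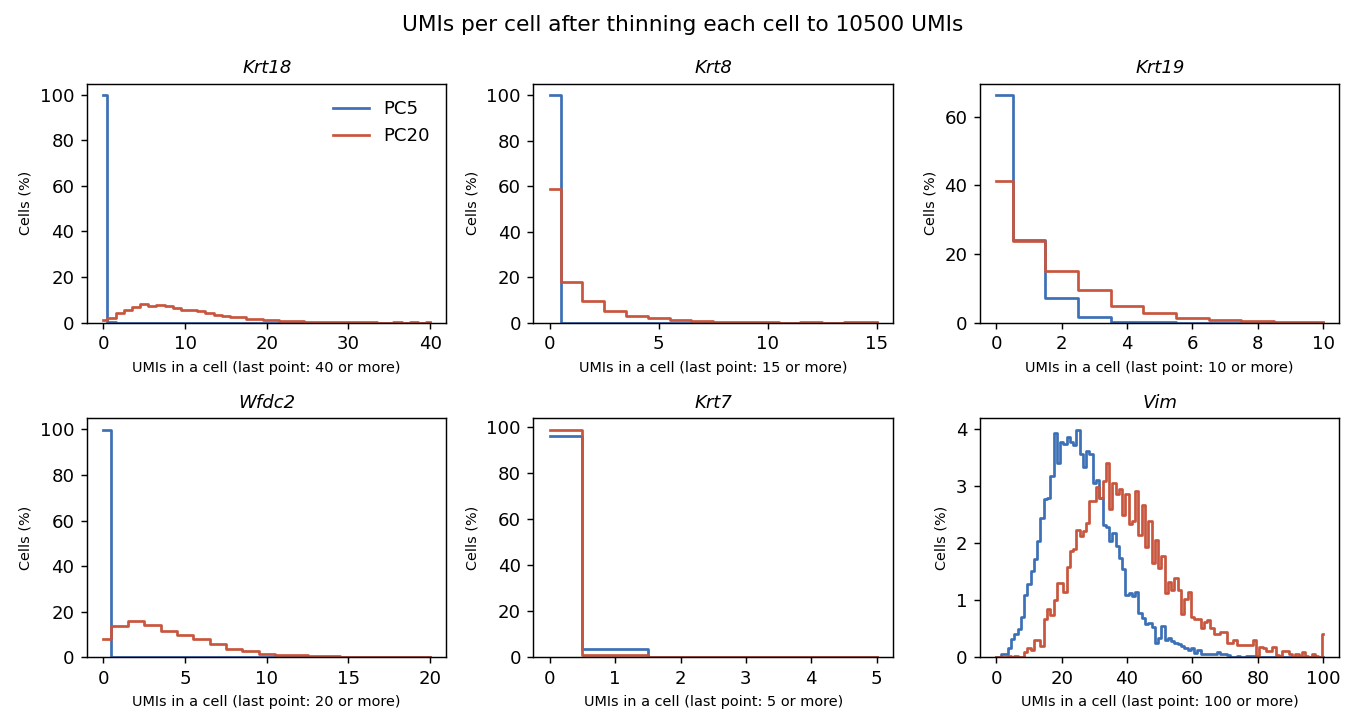
Percent of cells (vertical axis) with each number of UMIs (horizontal axis) of *Krt18*, *Krt8*, *Krt19*, *Wfdc2*, *Krt7* and *Vim* after each cell was thinned to 10500 UMIs, in 8847 PC5 and 4474 PC20 cells. *Krt18* sits at 0 in nearly every PC5 cell and in PC20 peaks at 5 UMIs, below its median of 8, while 58.8% of PC20 cells stay at 0 for *Krt8*.

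*Krt7* RNA in PC20 was concentrated in few cells. After thinning its Fano factor was 2.78 there, against 1.09 in PC5, and the largest number in a PC20 cell was 9 UMIs, against 3 in PC5. Without thinning, where PC20 cells were deeper, the largest numbers were 26 and 5 UMIs. The 62 thinned PC20 cells with *Krt7* had a mean of 13.8 *Krt18* UMIs, and the 4412 others 9.76. Their means were 1.65 and 1.04 for *Krt8*, 1.89 and 1.36 for *Krt19* and 44.3 and 40.0 for *Vim*. In PC5 the 362 cells with *Krt7* held 0.552 *Krt19* UMIs on average and the 8485 others 0.465. Each of these means was higher in the cells with *Krt7*, but those of other members were not all so. *Wfdc2* in PC20, at 4.21 and 4.06, and *Vim* in PC5, at 26.9 and 26.5, were almost level. *Krt18*, *Krt8* and *Wfdc2* were at 0 in the PC5 cells with *Krt7* and at traces in the others. *Cdh1* and *Epcam* were at 0 in the cells with *Krt7* of both libraries.

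Because the chains polymerise as a pair, *Krt8* was set against *Krt18* cell by cell. The counts are of 3′ tags, which do not grow with the length of the RNA, so no length correction was made. How reads shared with the *Krt8* pseudogene were assigned is uncertain, which limits the comparison of the 2 genes. In PC20 *Krt8* made up 9.73% (9.60 to 9.87) of the UMIs of both, or 9.28 *Krt18* UMIs for each *Krt8* UMI. Of 4749 cells, 2822 held both, 1907 held *Krt18* alone, 3 held *Krt8* alone and 17 held neither. Only 14 cells held more *Krt8* than *Krt18*.

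The balance of the pair differed widely between cells. In the 3332 cells with at least 20 UMIs of both genes together, *Krt8* was a median of 5.80% of them, 14.3% at the 75th percentile and 28.3% at the 95th. In 968 of these cells it was 0%, in 253 it was over 25%, and the highest was 57.1%. The Pearson dispersion of the counts over these cells was 5.67, where a fixed share in every cell gives 1.

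*Krt8* was found more often where *Krt18* was high. PC20 cells with 0 to 2 *Krt18* UMIs after thinning had a *Krt8* UMI in 17.0% (13.1 to 21.5) of cases. The share was 29.9% at 3 to 5 UMIs, 38.2% at 6 to 10, 52.2% at 11 to 20 and 68.9% (63.3 to 74.1) at 21 or more, over 335, 921, 1550, 1369 and 299 cells. *Wfdc2* went from 82.1% to 96.3% over the same classes, and its mean from 2.68 to 6.40 UMIs. *Krt19* went from 48.1% to 60.2%, with 62.7% in the class before the last. The mean of *Vim* went from 35.3 to 45.9 UMIs, so cells with more *Krt18* held more *Vim* too.

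**Figure D3:**
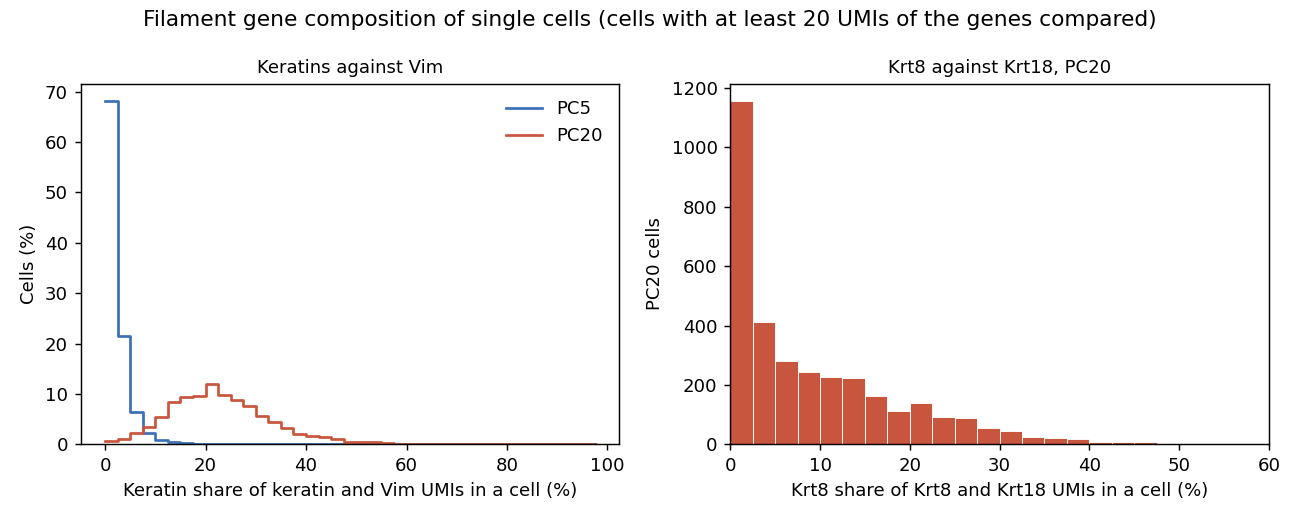
Left, percent of cells by the share that the 4 simple keratins make of keratin and *Vim* UMIs in a cell, for the cells with at least 20 such UMIs (8613 in PC5, 4661 in PC20). Right, number of PC20 cells by the share of *Krt8* in *Krt8* and *Krt18* UMIs, in bins of 2.5 percentage points over 3332 cells, where 1157 cells fall in the lowest bin and none above 57.5%.

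Set against *Vim*, the simple keratins were a small share of filament RNA in PC5 and over 20% of it in PC20. The 4 chains *Krt7*, *Krt8*, *Krt18* and *Krt19* together made up 1.93% (1.89 to 1.97) of keratin and *Vim* UMIs in PC5 and 22.5% (22.4 to 22.6) in PC20. That is 50.8 *Vim* UMIs for each keratin UMI in PC5 and 3.45 in PC20. Per cell the median share was 1.33% in PC5, with a maximum of 28.2%, and 22.0% in PC20, with a maximum of 83.8%. Keratin UMIs outnumbered *Vim* UMIs in 0 PC5 cells and in 74 PC20 cells. In PC5 46.1% of cells held no UMI of the 4 keratins, against 0.253% in PC20. *Vim* CPM was itself higher in PC20, so the larger keratin share there stood beside more *Vim* RNA per UMI.

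Depth of the cell was examined by cutting each library into 5 groups of equal size by UMIs per cell. In PC20 the median depth ran from 16067 UMIs in the shallowest group to 71484 in the deepest. *Krt18* had 1067, 970, 892, 918 and 873 CPM from the shallowest group to the deepest, a fold of 0.819 (0.804 to 0.833) between the ends. Over these groups *Wfdc2* went down step by step, from 427 to 407, 378, 363 and 347 CPM. With cells cut at fixed numbers of UMIs its fall was not steady. *Wfdc2* had 314 CPM (287 to 344) in the 261 PC20 cells of 1909 to 9956 UMIs. It had 452 CPM (436 to 467) in the 449 cells of 10123 to 19997 UMIs. The deepest 781 cells had 345 CPM (340 to 349). In the same cells, in that order, *Krt18* had 977 (928 to 1028), 1054 (1030 to 1078) and 880 CPM (873 to 887). *Krt8* had 109.6 CPM in the shallowest group and 96.8 CPM in the deepest, with the lowest value, 88.4 CPM, in the middle group. *Krt19* was highest in the group after the shallowest, at 159.6 CPM, and lowest in the deepest, at 97.2 CPM.

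*Vim* took another course in PC20, with 3937 CPM in the shallowest group, 3547 CPM in the middle one and 4156 CPM in the deepest. The 4 keratins summed were thus lower per UMI in the deepest cells of PC20, by a fold of 0.813 (0.800 to 0.827). With 10 groups the fold was 0.919, and where neither *Mki67* nor *Top2a* was seen it was 0.977.

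In PC5, where the keratin RNA was mostly *Krt19*, the deepest group had more per UMI, with a fold of 1.29 (1.19 to 1.39) for the 4 keratins, from 43.1 to 55.5 CPM, and 1.30 (1.28 to 1.31) for *Vim*, from 2136 to 2770 CPM. At like depth the contrast of the passages remained. In cells of 20000 to under 30000 UMIs *Krt18* had 0.127 CPM in 3541 PC5 cells and 983 CPM in 1287 PC20 cells, and *Krt19* 45.9 and 155.8 CPM.

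**Figure D4:**
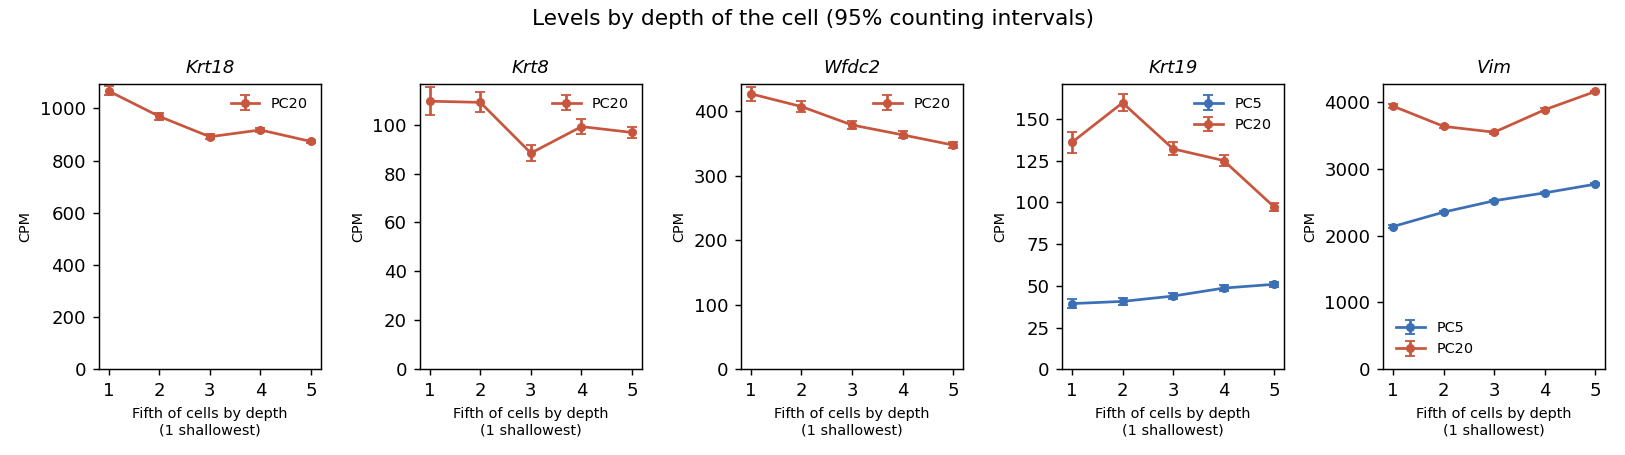
CPM with 95% counting intervals (vertical axes from 0) in 5 groups of cells by depth, from the shallowest (1) to the deepest (5), for *Krt18*, *Krt8* and *Wfdc2* in PC20 and for *Krt19* and *Vim* in both libraries. *Krt18* and *Wfdc2* lie lower in the deepest PC20 group (873 and 347 CPM) than in the shallowest group (1067 and 427 CPM). Both genes plotted for PC5 lie higher in the deepest group. The shallowest PC20 group is mixed, as its 261 cells of 1909 to 9956 UMIs had 314 CPM of *Wfdc2*.

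Cells with a UMI of the proliferation genes *Mki67* or *Top2a* made up 45.0% of PC5 and 72.2% of PC20 cells, and were deeper, with medians of 37658 and 26024 UMIs with and without such a UMI in PC20. Since a deeper cell shows such a UMI more readily, the classes differ in depth as well as in cycling. In PC20 the cells with one had less *Krt18* per UMI, 890 against 1004 CPM, a fold of 0.887 (0.877 to 0.897). The fold was 0.788 (0.761 to 0.815) for *Krt8*, 0.848 (0.833 to 0.863) for *Wfdc2*, 0.978 (0.946 to 1.01) for *Krt19* and 0.990 (0.984 to 0.996) for *Vim*. *Krt8*, *Wfdc2* and *Krt18* thus stood lower in these cells and *Vim* almost level.

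Genes whose thinned UMIs ran most alike with *Krt18* across PC20 cells were listed by Pearson's r of log(1 + UMIs) over 7283 genes seen in at least 10% of 4474 cells. The cells share 1 library and depth, so the values are descriptions. The highest were *Mgp*, a matrix protein that limits calcification, at 0.35, *Krt8* at 0.32, *Wfdc2* at 0.30, *Bsg*, the membrane glycoprotein basigin, at 0.27, and *Tmsb4x*, which binds actin monomers, at 0.26. The lowest were *Rpl12* at -0.23, *Car6* at -0.20, *Prdx6* at -0.19, *Ybx3* at -0.18 and *Snhg6* at -0.17. Of all genes compared, the partner chain was thus next to the top of the list.

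*Wfdc2* had its highest values with *Bsg* at 0.38, *Tmsb4x* at 0.37, *Mgp* at 0.34, *Spp1*, the secreted osteopontin, at 0.32 and *Tmem176a* at 0.31, and its lowest with *Rpl12* at -0.27, *Snhg6* at -0.24, *Rps12* at -0.23, *Npm1* at -0.23 and *Ftl1* at -0.22. *Vim* had a different list in PC20, led by the ribosomal protein *Rpl37a* at 0.41, the S100 proteins *S100a6* at 0.31, *S100a10* at 0.30 and *S100a11* at 0.27, and *Rpl11* at 0.27. Its lowest were *Chchd10* at -0.34, *Ncl* at -0.26, *Pla2g4a* at -0.24, *Xist* at -0.23 and *Ptgs2* at -0.22. *Krt18* and *Vim* had an r of 0.21 with each other, *Krt18* and *Krt19* 0.12, and *Krt8* and *Krt19* 0.02.

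*Krt19* shared little with the pair, and its list was drawn up after its values were seen. In PC20 it was led by *Anxa2*, which binds membranes and calcium, at 0.33, and by 4 genes of glycolysis, *Ldha* at 0.32, *Eno1* at 0.29, *Tpi1* at 0.29 and *Pkm* at 0.28, while the ferritin heavy chain *Fth1* at -0.30 and *Tpt1* at -0.27 were lowest. In PC5 its highest r was 0.17, with *Ppia*, and its r with *Vim* was 0.12. Values of this size in sparse counts are not findings.

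Within the keratin family, 53 genes by symbol, the leading gene differed between the passages. PC5 held 15476 keratin UMIs, of which *Krt19* made up 67.1%, *Krt10*, a type I chain of the upper epidermis, 19.3%, *Krt7* 5.73%, *Krt80* 4.46% and *Krt76* 1.49%. PC20 held 220274, of which *Krt18* made up 79.2%, *Krt19* 10.4%, *Krt8* 8.54%, *Krt80* 0.842% and *Krt10* 0.600%. Type I chains thus made up most keratin RNA in both. *Krt80*, a type II chain, was at 3.10 CPM in PC5 and at 9.71 in PC20 (log2 ratio -1.65, from -1.78 to -1.52), and *Krt10* 13.4 and 6.92 CPM (log2 ratio 0.96, from 0.86 to 1.05).

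Of 11 keratins of stratified epithelia, only *Krt10* was expressed and 0 were expressed and past 2-fold, beside 37% of all expressed genes. That count rests on *Krt10* alone, which lay just within 2-fold, so nothing is read from it. In PC5 29 and in PC20 30 of the 53 genes had 0 UMIs. Of all 31053 genes listed, 20589 had a UMI in PC5 and 19146 in PC20. *Krt17*, named after its values were seen, had 0 UMIs in PC5 and 71 in PC20, of which 69 lay in 1 cell. That cell held 15059 UMIs, 54 of *Krt18*, 40 of *Vim*, 7 of *Krt8* and 4 of *Krt7*, and 0 of the basal keratins *Krt5* and *Krt14*.

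Expressed intermediate filament genes outside the keratins lay within 2-fold. Of 16 on the list 5 were expressed, *Vim*, the stem cell filament gene *Nes* and the lamins *Lmna*, *Lmnb1* and *Lmnb2*, and 0 were past 2-fold in either direction, beside 37% of all expressed genes. *Lmna*, which encodes the A-type lamins, was nearest to it, with 183.8 CPM in PC5 and 342 CPM in PC20 (log2 ratio -0.89, from -0.91 to -0.88). *Nes* had 65.1 and 47.5 CPM (log2 ratio 0.46, from 0.42 to 0.49). The median of the 5 was -0.41, beside -0.03 for all expressed genes. Below the limit for expressed genes, and named after their values were seen, *Prph*, *Synm* and *Des* had 19, 56 and 56 UMIs in PC5 and 435, 335 and 179 in PC20, while *Nefm*, *Bfsp1*, *Nefl* and *Gfap* had 238, 229, 138 and 97 in PC5 and 0, 3, 2 and 0 in PC20.

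Genes of epithelial junctions were split between the passages. Of 33 genes 9 were expressed, 4 of them higher in PC5 by more than 2-fold and 3 higher in PC20, beside 17.9% and 19.1% of all expressed genes, with a median log2 ratio of 0.88. *Cldn1* passed the limit of 10% of cells only through PC5 and *Spint2* only through PC20. The limit thus fixed the direction of these genes, and nothing is read from the counts. Higher in PC5 were *Cldn1*, a claudin of tight junctions, with 20.5 CPM against 0.0471, *Jup*, the plakoglobin of desmosomes, with 34.2 against 4.78, *Ctnnd1*, a catenin that binds cadherins, with 166 against 45.5, and the tight junction scaffold *Tjp1* with 195 against 78.5. Higher in PC20 were *Spint2*, an inhibitor of epithelial serine proteases, with 0.300 CPM in PC5 and 21.1 in PC20, the junctional adhesion molecule *F11r* with 10.1 and 61.0, and the desmosomal plaque gene *Pkp2* with 5.20 and 30.4. Several of these are also made outside epithelia, *Tjp1* and *Ctnnd1* among them. Beside *Krt18* and *Wfdc2*, the junction genes thus included members on both sides and *Cdh1* and *Epcam* at trace counts.

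Of 18 transcription and splicing regulators of epithelia 2 were expressed, and both were higher in PC20, as were 19.1% of all expressed genes. *Foxa2* passed the limit of 10% of cells only through PC20, which fixed its direction, so nothing is read from this count. *Klf5*, a zinc finger factor of epithelial progenitors, had 5.41 CPM in PC5 and 77.2 in PC20 (log2 ratio -3.83, from -3.92 to -3.75). *Foxa2*, a forkhead factor of endoderm, was at 0 UMIs in PC5 and 635 in PC20, at least 247-fold higher when 3 UMIs are set in place of 0, and was found in 523 PC20 cells. *Elf3*, an epithelial factor named here after its values were seen, had 0 and 543 UMIs, at least 211-fold higher, but lay in 306 PC20 cells, or 6.44%, below the limit of 10%. The splicing factors *Esrp1* and *Esrp2*, which set epithelial splice forms, had 0 and 359 UMIs in PC5 and 2 and 43 in PC20, and the factor *Grhl2* had 18 and 10.

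All 16 genes of the mesenchymal list, which holds factors of the epithelial to mesenchymal transition, were expressed. Of these 7 were higher in PC5 by more than 2-fold and 1 in PC20, beside 17.9% and 19.1% of all expressed genes, with a median log2 ratio of 0.75. *Cdh11* and *Twist2* passed the limit of 10% of cells only through PC5, which fixed their direction, so nothing is read from this count. The 5 farthest in PC5 were the microfibril gene *Fbn1* with 250.4 CPM against 11.9, *Cdh11*, a cadherin of mesenchyme, with 10.3 against 0.539, *Twist2* with 6.44 against 0.858, the repressor *Snai1* with 19.2 against 4.00, and *Cdh2*, the N-cadherin, with 229.9 against 50.4. *S100a4*, a calcium-binding protein of motile cells, was the gene higher in PC20, with 71.0 CPM in PC5 and 180.4 in PC20. Of the other repressors known to bind CACCTG, *Snai2* had 31.0 and 55.3 CPM, *Zeb1* 65.2 and 37.0, and *Zeb2* 104.5 and 80.8, none past 2-fold. Mesenchymal factors were thus present beside the keratins in PC20, where *Vim* was high as well.

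**Figure D5:**
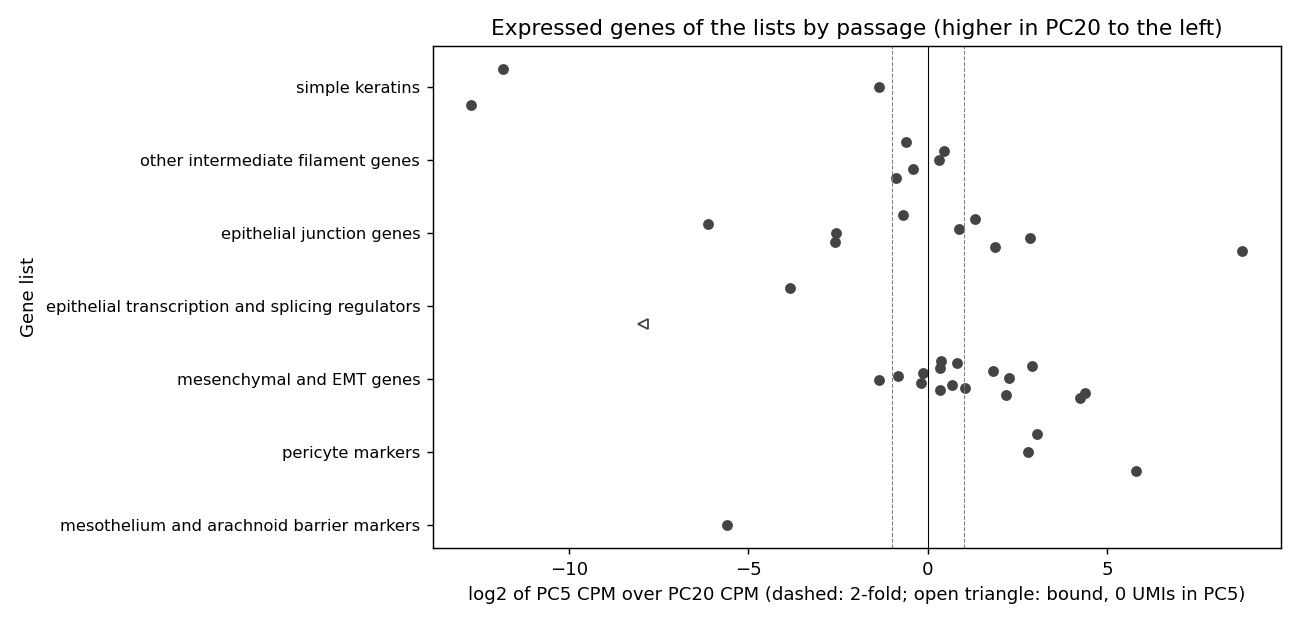
The log2 ratio of PC5 over PC20 CPM for each expressed gene of 7 lists, with dashed lines at 2-fold and an open triangle for *Foxa2*, whose value is a bound because it had 0 UMIs in PC5. The simple keratins *Krt18* and *Krt8* lie at -12.73 and -11.84, the 5 other filament genes between the dashed lines, and the junction genes on both sides.

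Markers of other cell types that carry simple keratins were read beside these results. Of 9 genes of mesothelium and arachnoid barrier, 1 was expressed, *Msln*, a surface protein of mesothelium, with 6.43 CPM in PC5 and 313 CPM in PC20 (log2 ratio -5.60, from -5.68 to -5.53), and with a UMI in 96.7% of PC20 cells, or 91.0% after thinning. *Msln* thus ran with the keratins and made up nearly all of the list in PC20, which summed to 12.0 CPM in PC5 and 313 CPM in PC20. The other members did not run with it, apart from *Upk3b* with 1 UMI in PC5 and 42 in PC20. *Bnc1* had 728 UMIs in PC5 against 1 in PC20, *Dpp4* 142 against 8, *Upk1b* 108 against 5, *Wt1* 99 against 0, *Slc6a13* 87 against 0 and *Slc47a1* 72 against 1, and *Lrrn4* had 0 in both.

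Choroid plexus epithelium, which covers the choroid plexus in the brain's ventricles and carries *Krt8* and *Krt18*, was represented by 10 genes that summed to 92.7 CPM in PC5 and 67.3 in PC20. Only the water channel *Aqp1* was expressed, with 90.5 and 63.3 CPM. The defining marker *Ttr* was at 36 UMIs in PC5 and at 0 in PC20, and *Kcne2* and *Sostdc1* had 0 in both. Of the other members *Clic6* was lower in PC20, with 0.0105 CPM against 0.462 CPM, while by UMIs *Folr1* had 175 against 16, *Calml4* 482 against 282 and *Kcnj13* 94 against 52, and *Kl* and *Otx2* had 1 UMI each in PC5 and 0 in PC20. The 6 ependyma genes summed to 1.69 and 1.04 CPM, with none expressed.

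Expressed markers of fibroblasts were higher in PC5, and so were most endothelial markers, while *Flt1* was higher in PC20. All 3 expressed fibroblast genes were higher in PC5 by more than 2-fold, beside 17.9% of all expressed genes, *Pdgfra* with 88.6 CPM against 0.131, *Dcn* with 51.3 against 0.167 and *Col3a1* with 1158 against 100.8. *Pdgfra* and *Dcn* passed the limit of 10% of cells only through PC5, which fixed their direction, so nothing is read from this count. Of 8 endothelial genes 3 were expressed. *Cdh5* was at 167.9 CPM in PC5 against 0.0262 in PC20, *Kdr* at 12.8 against 0.0680 and *Flt1* at 17.6 against 73.9. The direction of *Cdh5* and *Kdr* was likewise fixed, as both passed the limit of 10% of cells only through PC5. By UMIs *Pecam1* had 121 in PC5 against 21 in PC20, *Cldn5* 14 against 8, *Emcn* 369 against 0, *Tek* 37 against 3 and *Erg* 1 against 0. The part of any of these cell types in the keratin values was not tested.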

How the data were processed

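The authors deposited raw UMI counts by gene and barcode for 2 libraries (10x 3′ v3.1 chemistry), with no normalization. The submitters' processing notes name the build mm10 and Cell Ranger 5.0, and the file headers give 5.0.1. The filter on cells (over 1000 genes, mitochondrial UMIs under 20%) is that of the study's methods. It left 223054273 UMIs to PC5 and 191122251 to PC20. Doublets were neither called nor removed, and the study's other samples were not analysed here. UMIs were summed over kept cells to give CPM, with exact Poisson intervals, and log2 ratios had exact conditional binomial intervals and shares exact Clopper-Pearson intervals, all at 95% and covering counting error only. Against 0 UMIs a floor of 3 UMIs per library was used. For shares and correlations each cell was thinned without replacement to 10500 UMIs, the 10th percentile of depth over both libraries rounded down to a multiple of 500, which left out 1103 PC5 and 275 PC20 cells. The genes and lists were chosen with earlier results of these data known. Named genes were the 8 members, the expressed genes of each list past 2-fold (at most 5 in each direction), defining markers of other cell types, the 5 leading keratins of each library and the 5 highest and 5 lowest r to *Krt18*, *Wfdc2* and *Vim*. Others are said to be named after their values were seen, as are the filament genes within 2-fold and the CACCTG-binding repressors. The lists by r leave out pseudogenes and unnamed gene models. The motifs were picked by name. The ratio and its interval were tried on simulated counts that held counting error only, which says nothing on spread between cells or libraries. Alternatives were other cell filters, depths, library sizes, pseudocounts, detection limits and correlation measures. Python 3.11.15, numpy 2.4.6, scipy 1.17.1 and pandas 2.3.3 were used.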

Additional observations from a re-analysis of the deposited data

Results flagged for a closer look

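Barcodes that the filter left out, which enter no comparison above, also carried some of these RNAs, above the limit of 3 UMIs that a count of 0 allows. The 135 barcodes left out of PC20 held 116 UMIs of *Krt18*, 21 of *Krt8*, 12 of *Krt19*, 108 of *Wfdc2* and 420 of *Vim*, among 184103 UMIs in all. The 679 barcodes left out of PC5 held 56 UMIs of *Krt19* and 1702 of *Vim*, among 924207 UMIs in all, and 0 of *Krt18*, *Krt8* and *Wfdc2*. The PC20 barcodes left out had 630.1 CPM of *Krt18* (521 to 756) and 587 CPM of *Wfdc2* (481 to 708), beside 913 and 370 CPM in the kept cells.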

How the results depend on the processing

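No paired analysis was possible because each passage has 1 library. No log2 ratio of the 8 genes changed sign. Under every alternative run 6 of the 7 genes other than *Vim* were higher in PC20, *Cdh1* and *Epcam* at trace counts among them. The median log2 ratio of all expressed genes was -0.03. Since the genes were chosen by this contrast, nothing is read from that count. Of 80 single-gene values under alternatives, 52 lay within the counting interval of the value given above and 28 outside it, 15 of these with a pseudocount. Without one, *Krt18* ran from -13.26 to -12.52, *Krt8* from -13.18 to -11.82, *Epcam* from -5.59, in cells without a UMI of *Mki67* or *Top2a*, to -2.16, *Krt7* from 0.67 to 1.04 and *Vim* from -0.63 to -0.44. With a pseudocount of 0.1 on means per 10000 UMIs, *Krt18* was at -6.54, *Wfdc2* at -5.27, *Krt8* at -3.45, *Krt19* at -1.33 and *Krt7* at 0.17, and with a pseudocount of 1 *Krt18* was at -3.37 and *Krt7* at 0.02. Where neither *Mki67* nor *Top2a* was seen, the keratin share of keratin and *Vim* UMIs was 1.88% in PC5 and 24.0% in PC20, and *Krt8* was 10.6% of the pair. In cells of 20000 to 40000 UMIs the PC20 values were 24.7% and 9.56%, and in thinned cells the PC20 keratin share was 23.4%. With a limit of 0.1% of thinned cells in place of 1%, 5 genes were detected in PC5 in place of 3, and 8 in PC20 in place of 6. The genes gained were *Krt18* and *Wfdc2* in PC5 and *Cdh1* and *Epcam* in PC20, at shares not read as expression. For the deepest over the shallowest cells, PC20 keratins had folds of 0.847 with 3 groups, 0.919 with 10 groups and 0.977 in cells without a UMI of *Mki67* or *Top2a*. *Vim* had folds of 1.22, 1.33 and 1.40 in PC5 and of 1.08, 1.07 and 1.02 in PC20 under the same changes. Genes higher in PC20 past 2-fold numbered 1214 when 10% of cells in both libraries were asked for and 651 at 4-fold, against 2011. Genes higher in PC5 numbered 3023 at 1% of cells in either library and 756 at 4-fold, against 1880. At 1% of cells 2707 of all 13539 genes were higher in PC20 past 2-fold and 3023 in PC5. The junction list then had 10 genes higher in PC20 and 8 in PC5, other filament genes 3 and 2, and regulators 3 and 1. Genes that passed this limit through 1 library alone had their direction fixed by it. Of the 10 genes named for *Krt18*, 9 were named by Spearman's rho and 8 without thinning. Depth limits what can be said of *Cdh1* and *Epcam* and of the traces in PC5.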
